A study of Rattus norvegicus with 12 samples.

Results

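The Ugt2b genes encode UDP-glucuronosyltransferases of subfamily 2B, and their transcripts were measured in rat jejunum (mucosa scraped from that segment of the small bowel) in a Low Fe and a High Fe group. The members are all probe sets whose one annotated gene symbol begins with Ugt2b: 7 probe sets of 6 genes, out of 31142 probe sets and 13810 named genes on a pair of Affymetrix rat arrays, 230A and 230B. A probe set is a group of short probes read together for one transcript, and its signal is a brightness in array units that can be compared between samples but not between probe sets. The family was selected on measured values, because Ugt2b35, Ugt2b7 and Ugt2b15 had been seen to be lower in Low Fe in these same samples, so their differences are given as a description and no test of them is offered as evidence.

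Low Fe and High Fe had 3 samples each, numbered 1 to 3, and every sample was run on both array types. The labels place all samples at week 12 and carry iron deficiency and anemia as keywords. They do not give the strain, sex, diets or duration of feeding, nor say whether each sample came from its own animal, so errors and p-values cover sample-to-sample spread alone, and that spread may be technical. Markers of absorptive enterocytes were bright on every array, and the ileal marker Fabp6 and the colonic marker Car1 lay at signals of 28.2 to 133.9 and 8.1 to 26.5. From the same list of gut regions, the duodenal marker Pdx1 lay at 160 to 584.6, highest in Low Fe sample 2, and the ileal marker Slc10a2 at 80.9 to 139.1. The median signal was 154 to 176 on 230A and 259.5 to 302.6 on 230B, the number of arrays limits the precision, and 2 control ratios that follow RNA quality differed between samples, as given below.

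UDP-glucuronosyltransferases sit in the membrane of the endoplasmic reticulum and join glucuronic acid, taken from UDP-glucuronic acid, to fat-soluble molecules, which makes them soluble enough to be pumped out of the cell. Subfamily 2B acts on steroid hormones, bile acids, fatty acids and many drugs. In the small intestine these enzymes work in enterocytes, where they conjugate swallowed compounds during absorption. The genes lie side by side on the chromosome and resemble each other closely, so probes designed for one member may also catch transcripts of another.

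The start regions of the genes show this kinship, and they are printed because 3 genes of one stretch of chromosome 14 differed in the same direction. Each window holds 250 bases before and 50 bases from the annotated start (RefSeq, assembly GRCr8), and 9 Ugt2b genes had one, which includes all 6 measured genes. Capitals mark the longest run of bases that the windows of Ugt2b35, Ugt2b7 and Ugt2b15 share. The window of Ugt2b10, a member that did not differ between the groups beyond its spread, lacks the exact run but holds a near copy, and is shown beside them.
Ugt2b35, chr14:21208191-21208490, plus strand: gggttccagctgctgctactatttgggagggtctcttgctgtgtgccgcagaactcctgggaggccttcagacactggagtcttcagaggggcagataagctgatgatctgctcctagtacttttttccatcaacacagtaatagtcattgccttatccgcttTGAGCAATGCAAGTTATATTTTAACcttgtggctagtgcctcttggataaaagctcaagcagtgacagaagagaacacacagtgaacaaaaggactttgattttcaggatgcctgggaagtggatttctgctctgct
Ugt2b7, chr14:21251285-21251584, plus strand: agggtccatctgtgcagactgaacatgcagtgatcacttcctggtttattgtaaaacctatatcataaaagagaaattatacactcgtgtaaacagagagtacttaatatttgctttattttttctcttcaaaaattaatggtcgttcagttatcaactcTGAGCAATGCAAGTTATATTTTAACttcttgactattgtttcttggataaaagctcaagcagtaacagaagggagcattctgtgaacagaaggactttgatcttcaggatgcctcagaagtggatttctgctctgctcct
Ugt2b15, chr14:21122616-21122915, plus strand: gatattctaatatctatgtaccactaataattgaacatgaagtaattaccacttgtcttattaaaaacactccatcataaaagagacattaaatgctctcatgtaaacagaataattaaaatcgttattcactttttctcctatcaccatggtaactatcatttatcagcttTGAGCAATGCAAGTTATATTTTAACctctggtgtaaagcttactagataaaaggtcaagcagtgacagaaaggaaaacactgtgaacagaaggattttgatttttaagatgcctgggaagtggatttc
Ugt2b10, chr14:21462591-21462890, plus strand: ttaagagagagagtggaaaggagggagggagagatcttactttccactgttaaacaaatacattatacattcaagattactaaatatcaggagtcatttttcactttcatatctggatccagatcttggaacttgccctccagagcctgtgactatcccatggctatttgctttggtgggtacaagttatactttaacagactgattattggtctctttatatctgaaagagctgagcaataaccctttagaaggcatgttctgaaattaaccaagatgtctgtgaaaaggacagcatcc

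The shared run is 25 bases long and begins 87, 90 and 78 bases before the start of Ugt2b35, Ugt2b7 and Ugt2b15. Of the 33469 RefSeq windows of all rat genes, 7 held it on either strand (0.0209%), and all 7 lie on chromosome 14. They belong to 6 Ugt2b genes, which are these 3, Ugt2b, Ugt2b37 and Ugt2b7l1, and to LOC134478834, the gene listed next to Ugt2b. The windows of Ugt2b1, Ugt2b10 and Ugt2b34l1 do not hold it exactly. The closest copies there, without gaps, match at 15, 18 and 13 of the 25 bases. Ugt2b10 matches the last 16 bases of the run at 15, beginning 68 bases before its start, against 78, 81 and 69 bases in Ugt2b35, Ugt2b7 and Ugt2b15, and 0.0239% of all windows hold a copy at least that close. The near copies were searched after the sequences had been seen. Over whole windows, in a global alignment, Ugt2b35 and Ugt2b7 were identical at 70.9% of the aligned columns, Ugt2b15 and Ugt2b7 at 69.2% and Ugt2b15 and Ugt2b35 at 64.6%, whereas Ugt2b10 matched the 3 genes at 52.2% to 53.2%. Ugt2b34l1 matched the other windows at 48.9% to 52.8%. Windows of unrelated genes were not aligned, so the level reached without kinship is not known. The closest pair was Ugt2b15 and Ugt2b37 at 85.3%.

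Short motifs were also looked for on both strands of the windows. The half-site of the liver and gut factor HNF1, GTTAAT, was found in none of the 3 genes' windows and in Ugt2b10's, against 7.45% of all windows. The full HNF1 palindrome, which is this half-site, any 1 base and the half-site's reverse complement, was searched after the sequences had been seen. The last 13 bases of the shared run differ from it at 3 of 12 fixed letters, and 8.72% of all windows hold a stretch at least as close. The windows of Ugt2b1 and Ugt2b10, which lack the exact run, also hold one with 3 differences. It begins at -72 and -65 relative to the start. Both stretches lie inside the closest copies of the run there, which begin at -84 and -77. The motif of the intestinal factor CDX2, TTTATNG, was in the windows of Ugt2b7 and Ugt2b7l1 (11.3% of all windows), and the hypoxia response core, ACGTG, in that of Ugt2b1 (19.3%). The antioxidant response core TGACNNNGC (12.1% of all windows) and the HNF4 letters AAGTCCA (3.9%) were in none of the 9 windows. The xenobiotic response core GCGTG (29.7%) was in that of Ugt2b34l1, and the TATA box letters TATAAA (14.2%) in those of Ugt2b and Ugt2b10. In Ugt2b10 the TATA letters (first base at -34 relative to the start) and the HNF1 half-site (at 16, past the start) lay on the minus strand. These are matches of letters and do not say whether a factor binds.

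Ugt2b35, Ugt2b7 and Ugt2b15 each had less transcript signal in every Low Fe sample than in any High Fe sample. Ugt2b35 had signals of 684, 589 and 694 in Low Fe samples 1, 2 and 3, against 1544, 1498 and 1715 in High Fe samples 1, 2 and 3. The Low Fe samples lay close together, and every High Fe sample lay far above them. The means were 655.6 ± 57.8 in Low Fe and 1586 ± 114 in High Fe (SD, n = 3 each), a log2 difference (Low Fe minus High Fe) of -1.26 ± 0.13 (SE), or 2.39-fold higher in High Fe.

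Ugt2b7 shares its name with the human enzyme that conjugates morphine and other opioids, although a name shared between species need not mark the same gene. Its signals were 160.3, 162 and 225.9 in the Low Fe samples and 475, 517 and 408 in the High Fe samples. Low Fe sample 3 was the highest of its group on this probe set and still lay below every High Fe sample. The means of 183 ± 37.4 in Low Fe and 466 ± 55.1 in High Fe gave a log2 difference of -1.29 ± 0.18, or 2.44-fold higher in High Fe.

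Ugt2b15 shares its name with a human enzyme that inactivates androgens. Its signals were 454, 271 and 462 in the Low Fe samples and 682, 861 and 774 in the High Fe samples. The groups did not overlap, although Low Fe sample 2 stood well below the other two of its group. The means were 396 ± 108 in Low Fe and 772 ± 89.4 in High Fe, with a log2 difference of -0.97 ± 0.21, or 1.96-fold higher in High Fe. Without Low Fe sample 2 the difference was -0.73.

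Log2 differences are on the scale of log2(signal + 16) and come from a limma fit across the 9519 probe sets of 230A left after the dimmest 40% were dropped. Of the 3 tested members on 230A, 1 passed an adjusted p of 0.05 and all 3 were lower without overlap between the groups. Over the whole array type 0.0945% of probe sets passed, 0.0105% as lower in Low Fe, and 6.18% were lower without overlap. That single lower probe set was Ugt2b35, and since the family was picked on this contrast nothing is read from the counts. The median log2 difference was -1.26 over the 3 members and -0.01 over all 9519 probe sets. Fewer probe sets had a lower log2 difference than these members: 21 than Ugt2b7, 24 than Ugt2b35 and 56 than Ugt2b15. The pass of Ugt2b35 is no test of the family, and it did not hold under 5 of 20 alternatives. These were leaving out Low Fe sample 2 (log2 difference -1.18) or High Fe sample 3 (-1.20), the replicate number as a block (-1.26), values relative to enterocyte markers (-1.13) and arrays scaled to the hybridization controls (-0.89). Ugt2b7 lay near the threshold (limma adjusted p = 0.0541) and passed under 5 of 20 alternatives, and Ugt2b15 passed under 0. Which members passed is thus not read as a contrast between them.

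**Figure D1:**
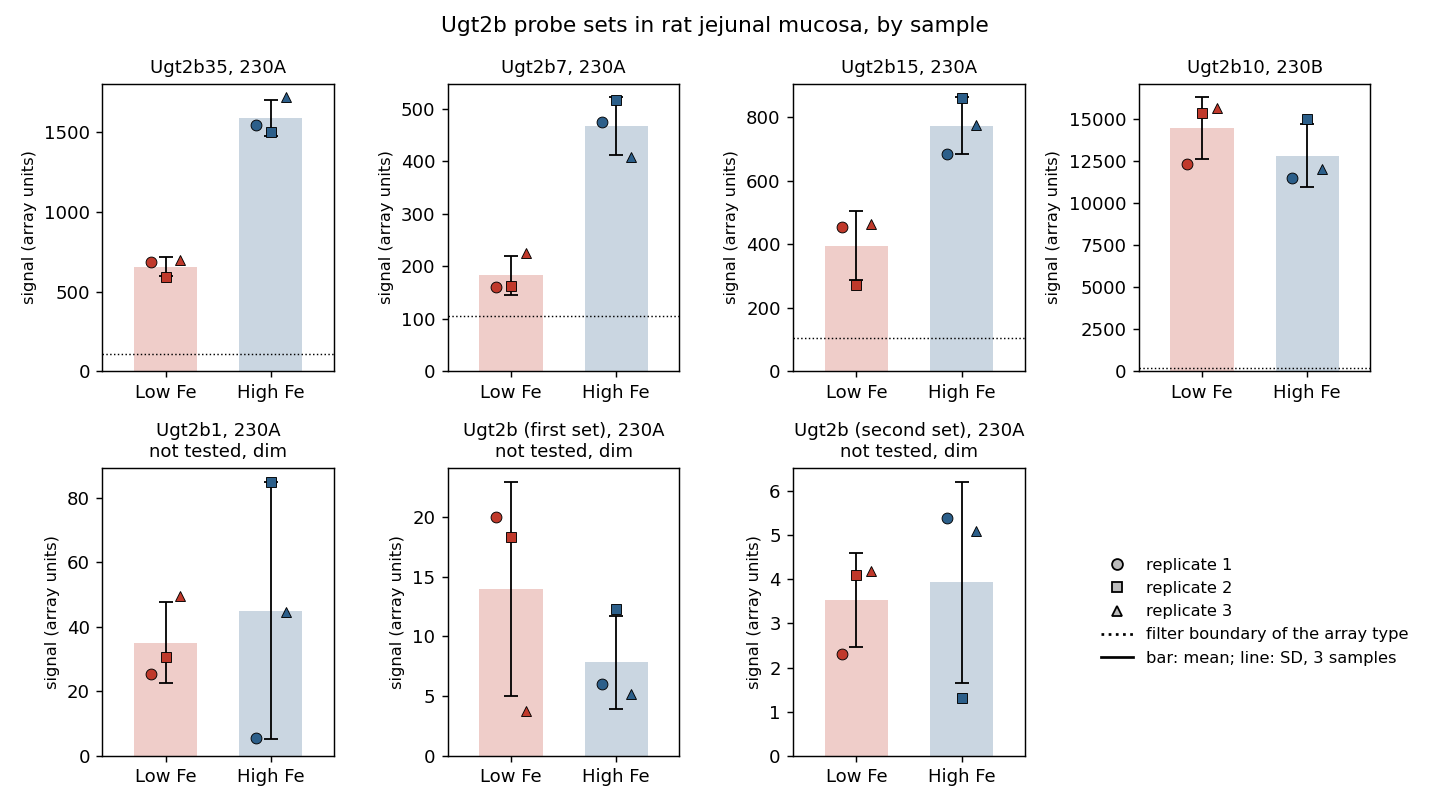
Signal in array units (vertical axes, linear, from 0, a scale of its own in each panel) of the 7 Ugt2b probe sets in Low Fe and High Fe samples. Bars are means, lines SDs, symbols the 3 samples of a group, and dotted lines the filter boundary of the array type. The groups do not overlap for Ugt2b35, Ugt2b7 and Ugt2b15 and overlap for the other 4 probe sets.

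Ugt2b10 did not differ between the groups beyond its spread. It is the one member on 230B, and in people an enzyme of this name attaches glucuronic acid to nicotine and to amine drugs. Its signals were 12302, 15327 and 15627 in the Low Fe samples and 11477, 14955 and 11984 in the High Fe samples. The groups overlapped, with High Fe sample 2 above Low Fe sample 1. The means were 14419 ± 1840 in Low Fe and 12805 ± 1879 in High Fe, with a log2 difference of 0.17 ± 0.17 and a 95% confidence interval from -0.20 to 0.55 (limma adjusted p = 0.701). The interval holds no difference of the size seen for the 3 lower members, but it comes from another array type with its own scaling, and the difference between the members was not tested. Quantile normalization turned its sign (-0.08).

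On 230B 0% of the 9165 tested probe sets passed an adjusted p of 0.05 in limma, 932 had an unadjusted p under 0.05, and 17.4% did not overlap between the groups in either direction.

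The other 3 member probe sets lay under the filter boundary of 230A, a signal of 106, and were not tested. Ugt2b1, which conjugates testosterone and morphine in rat liver, had signals of 25.3, 30.6 and 49.5 in Low Fe and 5.4, 85.1 and 44.6 in High Fe. The spread within High Fe was wider than the whole Low Fe group. The gene named Ugt2b had 2 probe sets, the first with signals of 3.7 to 20 in Low Fe and 5.2 to 12.3 in High Fe, and the second with 2.3 to 4.2 in Low Fe and 1.3 to 5.4 in High Fe. The groups overlapped for all 3 dim probe sets. When no filter was applied their log2 differences were -0.02 ± 0.53 for Ugt2b1 and 0.29 ± 0.26 and -0.02 ± 0.14 for Ugt2b, values at which a change cannot be told from background at this signal.

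The 3 lower members are near neighbours on the chromosome. In the gene order of GRCr8 along chromosome 14, the run reads Ugt2b, the pseudogenes Ugt2b-ps1 and Ugt2b17-ps1, Ugt2b15, LOC120096526, Ugt2b37, Ugt2b35, Ugt2b7, Ugt2b7l1, Ppial4d, Ugt2b1, Ugt2b10 and Ugt2b34l1. No gene with its own probe set lies between Ugt2b15 and Ugt2b7 other than Ugt2b35. Of the neighbours outside the family, Ugt2a1, a transferase of subfamily 2A, gave a log2 difference of -0.11 ± 0.20 (limma adjusted p = 0.921). Sult1b1, a sulfotransferase of thyroid hormones and phenols on the same side, gave -0.47 ± 0.19 (adjusted p = 0.720). Ythdc1, a reader of methylated RNA on the other side, gave 0.14 ± 0.12 (adjusted p = 0.850). How far the probe sets of Ugt2b15, Ugt2b35 and Ugt2b7 also read Ugt2b37 or Ugt2b7l1, which have no probe set of their own, was not tested.

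**Figure D2:**
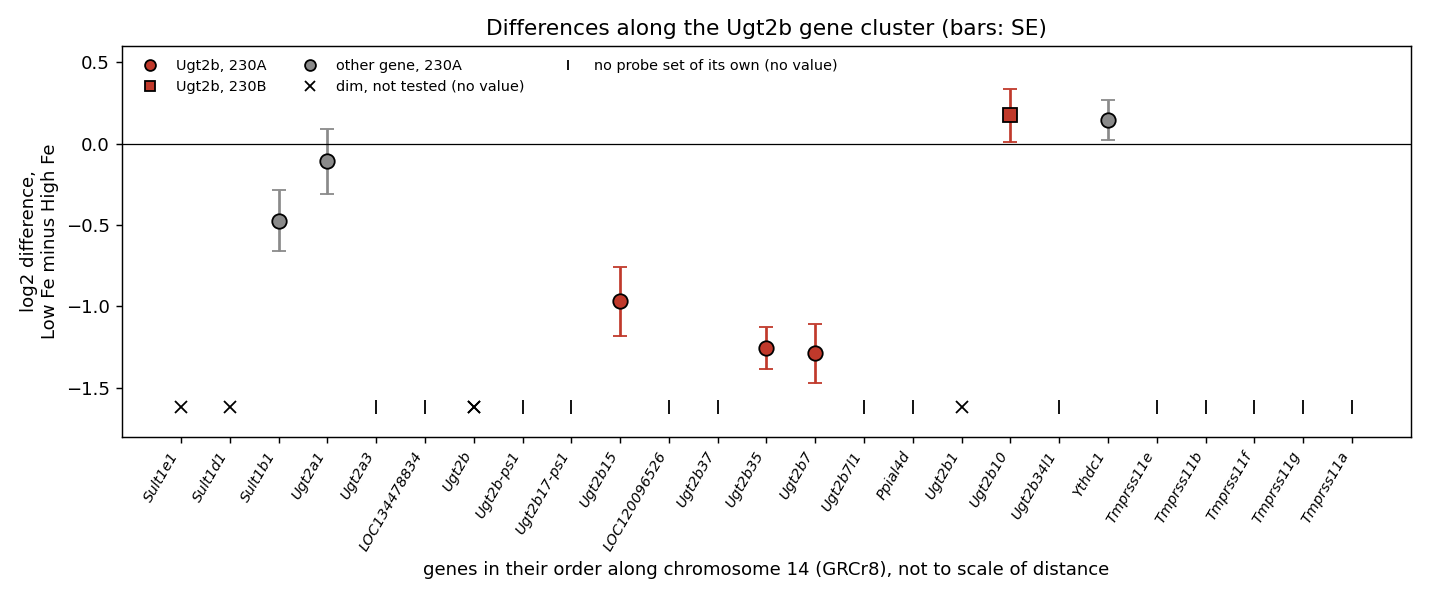
Log2 difference, Low Fe minus High Fe (vertical axis), for genes in their order along chromosome 14 (horizontal axis, not to scale of distance), with SE bars. Crosses mark genes too dim to test and ticks genes with no probe set of their own, neither with a value. Ugt2b15, Ugt2b35 and Ugt2b7 lie at -0.97 to -1.29, while Ugt2b10 and the tested flanking genes lie between -0.47 and 0.17.

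Across the 6 arrays of 230A the 3 lower members followed each other, with Pearson r of 0.95 between Ugt2b35 and Ugt2b7, 0.92 between Ugt2b35 and Ugt2b15 and 0.91 between Ugt2b7 and Ugt2b15. These values mostly restate the gap between the groups, and within a group the order differed: High Fe sample 3 was the highest for Ugt2b35 but the lowest for Ugt2b7. Among 7048 other named genes, the patterns closest to Ugt2b35 were those of Fbp1, the gluconeogenic fructose bisphosphatase (r = 0.99), Gpd1, the cytosolic glycerol phosphate dehydrogenase (r = 0.98), and Wdr62, a spindle pole protein (r = 0.97). Fbp1 had signals of 2131 to 2292 in Low Fe and 3237 to 3497 in High Fe, without overlap, and a log2 difference of -0.58 ± 0.11. For Ugt2b7 the closest were Vmp1, an autophagy protein (r = 0.99), Rab9a, a GTPase of endosome traffic (r = 0.99), and Rbx1, a ubiquitin ligase subunit (r = 0.98). For Ugt2b15 they were Tgoln2, a trans-Golgi protein (r = 1.00), Mff, a mitochondrial fission factor (r = 0.99), and Crot, the peroxisomal carnitine octanoyltransferase (r = 0.99). The log2 differences of these 9 genes ran from -0.63 to -0.27, all smaller in size than those of the 3 members, and none of the 9 passed an adjusted p of 0.05 in limma.

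The sister subfamily 1A did not show a difference of this size. On 230A 2 probe sets are annotated to 8 Ugt1a genes at once, which share most of their exons, so no single gene is named. The first had signals of 12062, 11389 and 9936 in the Low Fe samples and 9934, 13809 and 12687 in the High Fe samples. The groups overlapped, and the log2 difference was -0.12 ± 0.15 with a 95% interval from -0.45 to 0.22 (limma adjusted p = 0.886). The second gave -0.07 ± 0.14 (adjusted p = 0.930). The difference between the subfamilies was not tested. Beside Ugt2a1, Ugt8, a ceramide galactosyltransferase, was the only other listed gene with probe sets of its own, the brighter of them dim at 54.5 to 75.8 in Low Fe and 66.6 to 80.4 in High Fe.

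Around the transferases, 5 lists of partner genes were examined, with 96 genes in all, of which 54 had a tested probe set. Of 56 values (a gene on each array type), 0 passed an adjusted p of 0.05 in limma in either direction, and 4 had an unadjusted p under 0.05, all lower in Low Fe, beside 6.68% of all tested probe sets on 230A (3.51% lower and 3.17% higher). These counts use the brightest probe set of a gene, and a second probe set of Abcb1a, higher in Low Fe, also had an unadjusted p under 0.05. The supply of UDP-glucuronic acid and the removal of glucuronic acid were covered by 8 tested genes, with 5 below 0 and a median log2 difference of -0.03. Ugdh, the dehydrogenase that makes UDP-glucuronic acid, had signals of 3020, 3491 and 4260 in Low Fe and 3637, 3623 and 3638 in High Fe, which overlap, and a log2 difference of -0.03 ± 0.14; it was picked for its role and not by the naming rule. Ugp2, which makes UDP-glucose, gave -0.20 ± 0.15, Pgm2, a phosphoglucomutase, -0.17 ± 0.13, and Uxs1, which turns UDP-glucuronic acid into UDP-xylose, 0.36 ± 0.20.

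Transporters that carry conjugates and drugs out of or into the cell had 12 tested genes, of which 0 passed. The median was 0.01 over 9 of them on 230A and 0.13 over 3 on 230B. Abcc2, the apical pump for glucuronides, had signals of 1402, 1187 and 1497 in Low Fe and 1051, 725 and 1328 in High Fe, and a log2 difference of 0.43 ± 0.21 (limma adjusted p = 0.761). Abcb1a, the drug efflux pump P-glycoprotein, gave 0.45 ± 0.27, and 0.40 ± 0.16 for a second probe set, neither past the threshold. Abcc5, a pump of cyclic nucleotides, gave -0.30 ± 0.15, and its groups did not overlap (381 to 433 in Low Fe, 459.5 to 581 in High Fe).

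Transcription factors known to regulate UGT genes had 17 tested genes, of which 0 passed, with 11 below 0 and a median log2 difference of -0.12 on 230A. Cdx2, an intestinal identity factor, had signals of 2749, 2851 and 2822 in Low Fe and 2649, 2122 and 2508 in High Fe, without overlap and higher in Low Fe, and a log2 difference of 0.22 ± 0.12 (limma adjusted p = 0.778). Ppard, a fatty acid receptor, gave 0.42 ± 0.22 and Ahr, the aryl hydrocarbon receptor, -0.31 ± 0.22. Hnf4a, an enterocyte and liver factor, was singled out after its values were seen. On 230A it had signals of 711, 150 and 204 in Low Fe and 162, 794 and 864 in High Fe, while its 230B probe set had 17479 to 20550 in Low Fe and 17381 to 19932 in High Fe (log2 difference 0.03 ± 0.14). The 230A values of Hnf4a split the samples as the control ratio for RNA quality did, with Low Fe samples 2 and 3 and High Fe sample 1 low. A second 230A probe set of Hnf4a split them alike. So did Rxra from the same list, at 275, 64 and 40.3 in Low Fe and 43.3, 190 and 229 in High Fe. The part of RNA quality in these values was not tested.

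Enzymes that act on steroids, drugs and other shared substrates had 16 tested genes, of which 0 passed, with a median of -0.02 over 15 on 230A. Cyp1a1, a cytochrome P450 induced through the aryl hydrocarbon receptor, had signals of 149, 48.3 and 262 in Low Fe and 714, 372 and 378 in High Fe. The groups did not overlap, the log2 difference was -1.75 ± 0.48 (limma adjusted p = 0.523), and it was -1.17 without Low Fe sample 2. Sult1b1 had signals of 3215, 2599 and 3188 in Low Fe and 3819, 5532 and 3392 in High Fe. Hsd17b4, a peroxisomal enzyme of fatty acid and steroid breakdown, had 2811, 2483 and 2590 in Low Fe and 3064, 3315 and 3258 in High Fe, with a log2 difference of -0.29 ± 0.11 (adjusted p = 0.720). The fourth gene with an unadjusted p under 0.05 was Akr1c14, a steroid dehydrogenase, at -0.44 ± 0.19, with -0.03 ± 0.18 for a second probe set and -0.08 ± 0.13 on 230B.

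**Figure D3:**
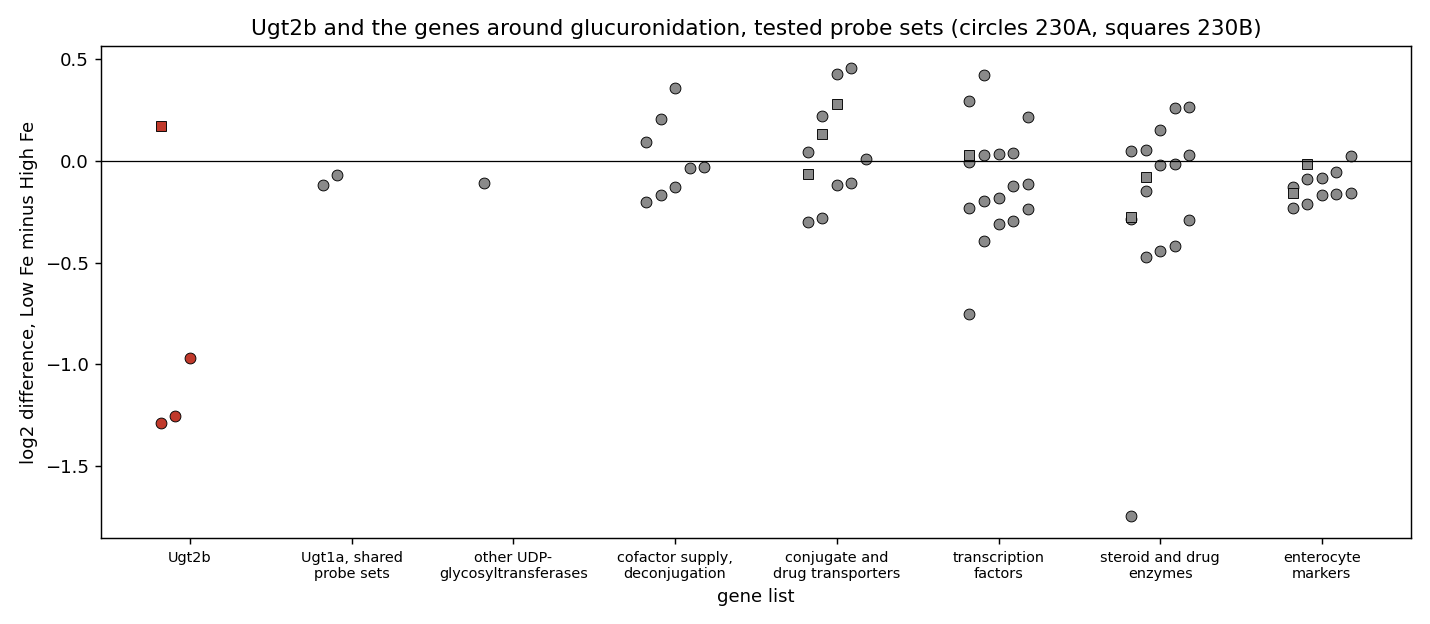
Log2 difference, Low Fe minus High Fe (vertical axis), of each tested probe set of Ugt2b (red) and of the lists around it (grey), enterocyte markers included, with the brightest probe set per gene and array type, circles for 230A and squares for 230B. Of the grey points, the lowest is Cyp1a1 at -1.75 and the others lie between -0.75 and 0.45.

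Levels of cell types and RNA quality were set beside the 3 lower members. In bulk scrapings, fewer cells of a type and less RNA per cell cannot be told apart. Of 10 tested enterocyte markers on 230A, 9 lay below 0 with a median log2 difference of -0.14, 0 passed, and their summed signal was 101572 to 127274 in Low Fe and 97719 to 157994 in High Fe, which overlap. Set relative to the mean of these markers on the same array, the log2 differences were -1.13 for Ugt2b35, -1.16 for Ugt2b7 and -0.84 for Ugt2b15, where the median of all probe sets was 0.11. Of the liver and pancreas list, 8 of 9 markers had a probe set and 2 were bright enough to test. The summed signal was 553 to 641 in Low Fe and 547 to 760.3 in High Fe, and albumin (Alb) lay at 73.2 to 81.5 in Low Fe and 43 to 180.8 in High Fe. Apoh, a liver marker too dim to test, was lower in Low Fe without overlap (66.4 to 77.2, against 90.3 to 113.6 in High Fe). The other markers of this list overlapped.

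Some summed signals did not overlap between the groups, although a sum follows its brightest probe set. Crypt and cycling markers summed to 2262 to 3545 in Low Fe and 1385 to 1518 in High Fe (3 of 7 genes tested). Most of this was Pcna, a replication clamp, at 1737 to 2686 in Low Fe and 1000 to 1068 in High Fe; the proliferation marker Mki67 did not overlap either, and Top2a did. Smooth muscle markers on 230A summed to 4523 to 5928 in Low Fe and 3505 to 4211 in High Fe (5 of 8 tested). Most of this was Mylk, a myosin kinase, at 3391 to 4013 in Low Fe and 2436 to 2926 in High Fe. Smtn (139.5 to 238.5 in Low Fe, 48.3 to 114.9 in High Fe) and Des (140.4 to 158.6 and 74.2 to 129.9) did not overlap either. Acta2 and Myh11 overlapped. Of the 5 tested genes 0 lay below 0, with a median log2 difference of 0.56. On 230B the groups overlapped for Des and Mylk. Goblet markers went apart by array type: on 230B they summed to 42521 to 49977 in Low Fe and 34562 to 41836 in High Fe, with each of 3 tested genes overlapping. On 230A they summed to 49437 to 55451 in Low Fe and 45974 to 69446 in High Fe, which overlap, with all 5 tested genes below 0. Clca1, a goblet product, gave a log2 difference of -0.04 on 230A and 0.48 on 230B. Red blood cell genes summed to 597 to 726.5 in Low Fe and 779.9 to 1136 in High Fe (2 of 3 tested), most of it Hbb, a globin, and Alas2 overlapped. Over 10 marker lists, 0 of 57 tested values passed an adjusted p of 0.05. The part of these cell types in the Ugt2b result was not tested.

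The GAPDH control's 5'/3' signal ratio, which follows RNA quality, was 0.88, 0.81 and 0.79 in Low Fe samples 1, 2 and 3 on 230A, against 0.81, 0.92 and 0.89 in High Fe samples 1, 2 and 3. The same ratio of beta-actin was 0.84, 0.59 and 0.05 in the Low Fe samples and 0.62, 0.74 and 0.81 in the High Fe samples. Without Low Fe sample 3, whose actin ratio stood apart, the log2 differences were -1.30 for Ugt2b35, -1.44 for Ugt2b7 and -1.10 for Ugt2b15. The members were also set side by side among samples with a like GAPDH ratio. With the lower ratio (Low Fe samples 2 and 3, High Fe sample 1) the log2 differences were -1.25 for Ugt2b35, -1.24 for Ugt2b7 and -0.91 for Ugt2b15. With the higher ratio (Low Fe sample 1, High Fe samples 2 and 3) they were -1.21, -1.43 and -0.83. Each set has a group of 1 sample, so these are values with no test. Because the groups did not overlap for these members, any split that keeps both groups gives differences below 0. The part of RNA quality in the result was not tested.

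**Figure D4:**
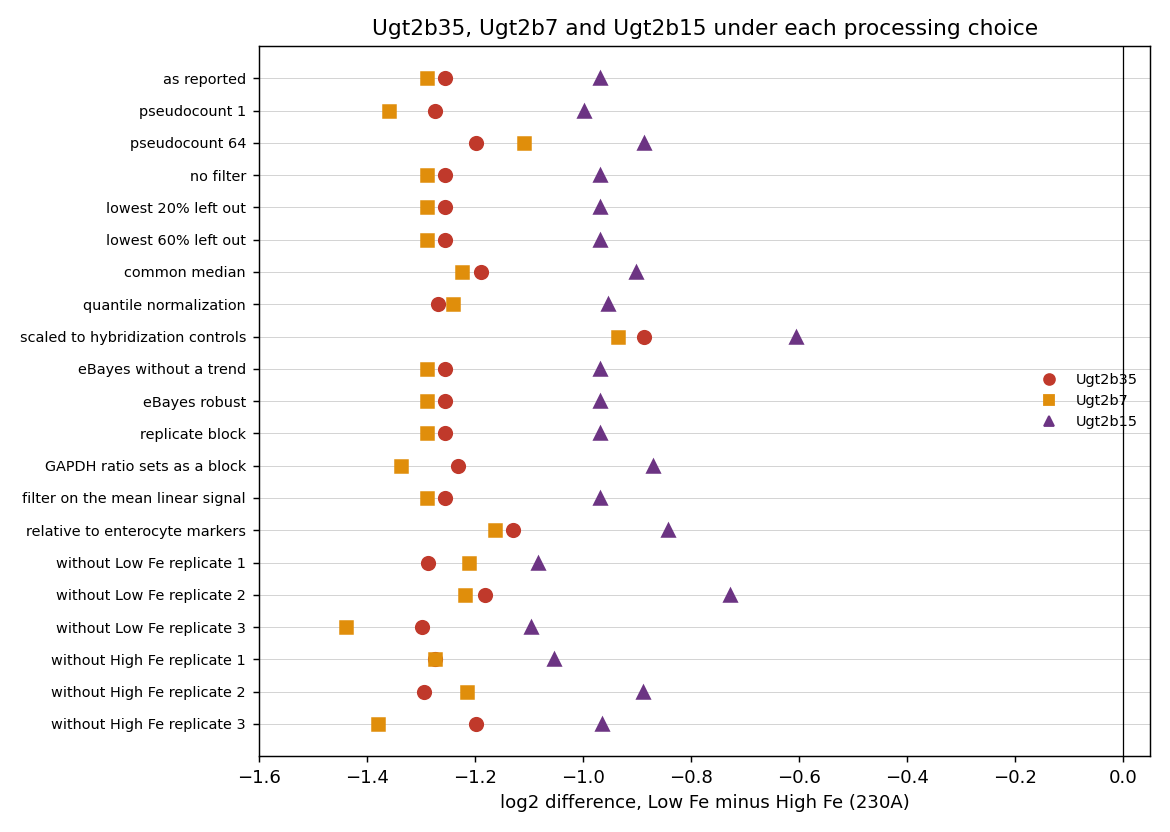
Log2 difference, Low Fe minus High Fe on 230A (horizontal axis), of Ugt2b35 (circles), Ugt2b7 (squares) and Ugt2b15 (triangles) as reported and under 20 other processing choices (rows). All points lie below 0, from -1.44 to -0.61, and each gene's value nearest to 0 comes from scaling to the hybridization controls. The sign was largely fixed in advance, since the groups did not overlap and filters, eBayes settings and the replicate block leave a value unchanged.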

How the data were processed

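Signals were taken from tables that the authors deposited, with 1 linear intensity per probe set and array, made by software not given in the sources used here. Their trimmed means were near equal (500.1 on 230A, 500.2 on 230B), which is a scaling that hides any shift common to most genes. Groups and numbers came from sample titles. Gene names came from the platform annotation, updated by Entrez identifier to RefSeq (GRCr8): 12748 of 12783 probe sets with 1 symbol matched on 230A and 7524 of 7564 on 230B.

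The groups (Low Fe minus High Fe) were compared per array type by limma 3.58.1 under R 4.3.3, using lmFit and trended eBayes on log2(signal + 16), a pseudocount of 16. Probe sets among the lowest 40% by mean log2 signal were dropped. Benjamini-Hochberg adjustment ran over all tested probe sets of a type, at a threshold of 0.05. Means and SDs are of linear signals. The brightest probe set stood for a partner or marker gene. Windows were aligned with Biopython 1.88 (global, match 1, mismatch -1, gap opening -2, gap extension -0.5). Steps were tested on simulated data. No block was used, since the labels name none. Same-numbered samples did not deviate together either.

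All Ugt2b probe sets are named. For partner lists the 3 genes with the smallest unadjusted p are named, and for likeness the 3 with the highest r. Members, lists and these rules were chosen with earlier results of these data known. The list of other transferases had 1 tested gene, Ugt2a1. Alternatives were other pseudocounts, filters, scalings and eBayes settings, blocks, each array left out in turn, enterocyte markers as the base, a threshold of 0.1 and, added after seeing the data, a filter on the mean linear signal.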

Additional observations from a re-analysis of the deposited data

How the results depend on the processing

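Ugt2b35, Ugt2b7 and Ugt2b15 lay below 0 under all 20 alternatives run, from -1.30 to -0.89, from -1.44 to -0.94 and from -1.10 to -0.61. Their common sign was largely fixed in advance, because the groups did not overlap for these members. Filters, eBayes settings and the replicate block also leave a log2 difference unchanged. The median log2 difference of these members, -1.26 on 230A, ran from -1.30 to -1.18 without 1 array. It was -0.89 after scaling by the hybridization controls, under which all probe sets had a median of 0.34. The count of 9 probe sets past the threshold on 230A was 33 with that scaling, 14 with the sets of arrays by the GAPDH ratio as a block, 15 at a threshold of 0.1, and 5 to 21 without 1 array: 5 without Low Fe sample 2 and 21 without Low Fe sample 1. The count on 230B was 0, 4 with scaling to the hybridization controls, and 0 without any 1 array. The labels number samples 1 to 3 in both groups, but deviations of same-numbered samples correlated at -0.36, -0.15 and -0.25 on 230A, so nothing shows that the numbers pair the samples. With the replicate number as a block, 4 probe sets passed on 230A and Ugt2b35 was not among the calls. The sign of some uncalled values turned: Ugt2b10 was -0.084 after quantile normalization, Ugt2a1 was 0.24 with scaling to the hybridization controls and 0.016 relative to enterocyte markers, and with scaling to those controls Pgm2 was 0.20, Ugp2 0.17, Abcc5 0.058, Ahr 0.026 and Hsd17b4 0.084, all below the median of all probe sets. Cyp1a1 passed with scaling to the hybridization controls (limma adjusted p = 0.0298) and relative to enterocyte markers (2.8e-05), and its adjusted p was up to 0.999 under the others. Its signals spread widely (48.3 to 262 in Low Fe), and the fit draws each probe set's variance toward that of the others. These passes therefore do not measure the spread of Cyp1a1 itself. Relative to enterocyte markers, Ugt2b35, whose signals lay closer together, had a limma adjusted p of 0.107. The mean log2 signal of the hybridization controls on 230A was 10.26 in High Fe sample 2 and 9.23 to 9.52 in the other samples. On 230B it was 11.98 in High Fe sample 2 and 11.15 to 11.40 in the others. Scaling to these controls thus moves that sample the most. The cause of the turned signs and changed calls was not tested. Signals well below the filter boundary limit what can be said of Ugt2b1 and Ugt2b.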
